A study of Mus musculus with 6 samples.

Results

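The 31 genes described here are a set of microglia and macrophage genes, read in bulk RNA sequencing of newborn mouse retina. They were chosen by name, as known genes of homeostatic microglia, complement, lysosomes, tissue-border macrophages and leukocytes, and make up 31 of 39179 genes in the count files. All 31 were matched by Ensembl identifier to GENCODE annotation on GRCm38, and all had reads in at least 1 library. The study asked what the LIM homeodomain transcription factor Lhx2 does in the retina, where it is required for Müller glia to form. Retinas were taken at postnatal day 0.5. The 3 control libraries came from mice that carried floxed Lhx2 alleles (Lhx2 lox/lox) with no Cre listed. The 3 conditional knockout (cKO) libraries came from mice that carried the same floxed alleles together with Pdgfrα-Cre. The controls are wild type in the series text but floxed in their genotype label, so by that label both groups share the alleles. The strain of every mouse was mixed, mostly CD-1. Cre was driven from Pdgfrα, and which cells had lost Lhx2, macrophages included, was not measured here. The labels number the controls 2, 3 and 4 and the cKO libraries 1, 2 and 3, and these numbers are used below.

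Microglia are the resident macrophages of the retina and brain. They arise from yolk sac progenitors, need signalling through the receptor Csf1r to survive, and depend on the transcription factor PU.1, made by the gene Spi1. Homeostatic microglia sense their surroundings with receptors such as Cx3cr1 and P2ry12, tag debris and synapses with complement C1q, and digest what they engulf in lysosomes. Border macrophages sit at vessels, meninges and other edges of nervous tissue, and are marked by the mannose receptor Mrc1 and, in many tissues, by Pf4 and Lyve1. In the newborn eye, macrophages also line the transient hyaloid vessels that run between retina and lens.

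Libraries held 31483170 to 66947478 reads assigned to genes. They fell into a pair of technical sets that cross genotype. Set A comprised the libraries with over 2.9% of all counts in the row for reads ambiguous between genes, namely control 2 with cKO 1 and 2, and set B the others, namely controls 3 and 4 with cKO 3. Mitochondrial transcripts also split the sets (1.15 to 1.79% of gene reads in A, 7.14 to 9.55% in B). Y-linked and Xist reads showed control libraries 2 and 4 to be male and the other libraries to be female, so every cKO library was female. Levels are given as CPM, counts scaled to library size with TMM factors. The cut of the filter on low counts used CPM without those factors. Lhx2 itself read 399, 266 and 258 CPM in control libraries 2, 3 and 4. In cKO libraries 1, 2 and 3 it read 252, 287 and 224 CPM. It was lower in cKO with library set as a term (log2 fold change -0.40, SE 0.10, adjusted p = 0.0338), although the groups overlapped. That call held in 2 of the 6 fits that left out a library (estimates -0.54 to -0.22, adjusted p 0.0155 to 0.414), and was lost with sex as a further term (adjusted p = 0.371) and without the set term (0.817).

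Most of the set was higher in the cKO retina. Of the 31 genes, 30 passed the filter on low counts (Cd14 did not), 21 of these were higher at an adjusted p under 0.05, none was lower, and 9 did not pass the test. Among all 16691 genes tested, 6.36% were higher and 5.63% were lower by the same rule, in numbers 1062 and 939 (1204 and 1672 by DESeq2, which called 22 of the members higher, as against 7.21% of all genes). The median log2 fold change of the 30 tested members was 1.19, beside -0.001 for all genes tested. The 30 estimates ran from 0.02 for Lgmn to 2.91 for Mrc1. Cd86 was the 1 tested member with no control library over the filter's CPM of 0.251, and passed the filter through its cKO libraries. Its call therefore adds no support to the counts of higher or non-overlapping members, here and below. Fewer than 3 control libraries were over that CPM for 4 tested members, of which Cd86 and Fcer1g were called. Fcer1g had 2 such controls and needed its cKO libraries to pass the filter. With no filter, all 31 could be tested and 23 were higher, against 5.79% of genes.

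**Figure D1:**
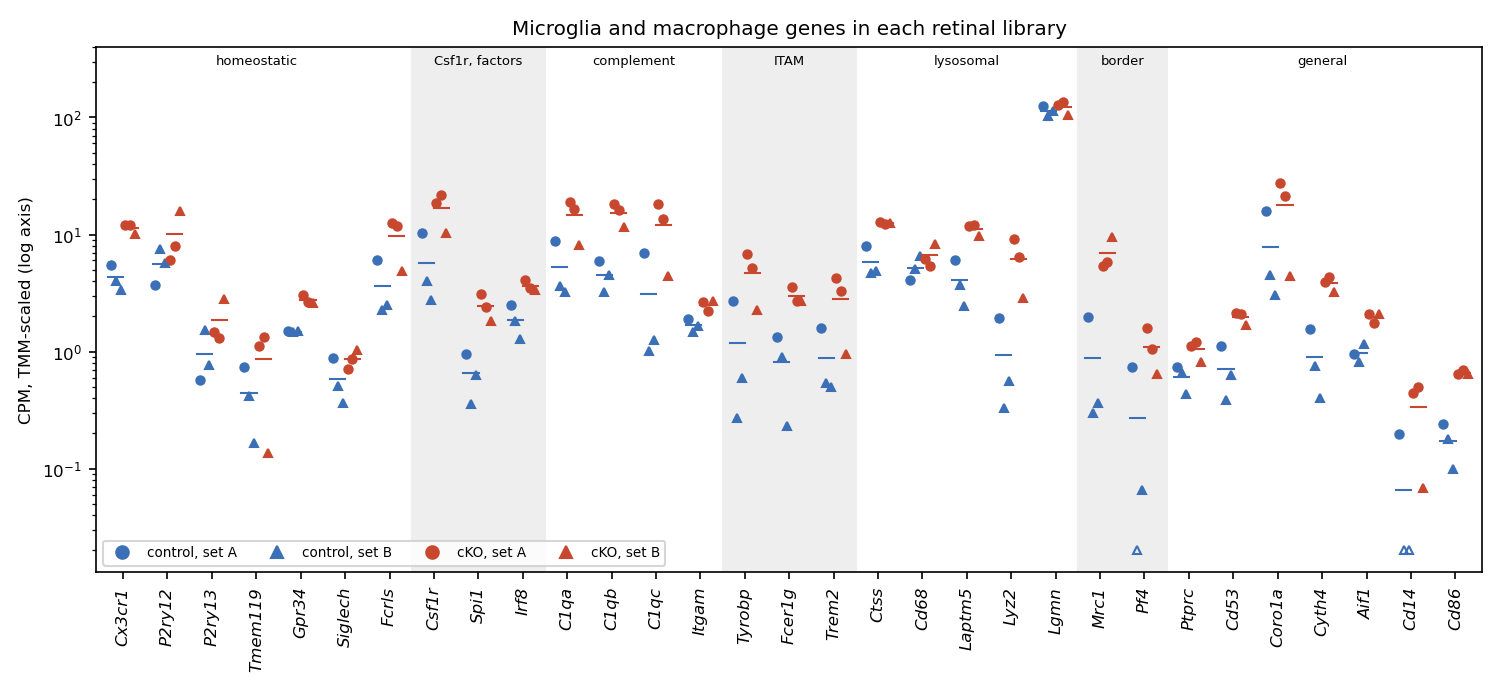
CPM of each of the 31 genes in the 6 libraries, on a log axis, in the order of the role groups; circles are set A, triangles set B, blue control, red cKO, horizontal lines the group means, and open triangles at the foot mark values of 0. All 3 cKO libraries lie above all 3 controls for 17 genes, and Lgmn stands far above the rest in both groups.

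All 3 cKO libraries lay above all 3 controls for 17 of the 31 genes, as against 8.38% of all genes tested. That held for 14 of the 21 called members, and the other 7 had groups that overlapped. The mean of log2(CPM + 0.5) over the 31 genes was 1.68, 0.996 and 0.926 in controls 2, 3 and 4 and 2.52, 2.42 and 2.03 in cKO 1, 2 and 3. The lowest cKO library thus stood above the highest control. The summed level without Lgmn was 105, 56.2 and 51.7 CPM in the controls and 221, 200.05 and 143 CPM in the cKO retinas. In bulk tissue, more macrophages and more RNA of these genes per macrophage cannot be told apart.

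Per unit of gene length the members differed widely. Lgmn, the lysosomal protease legumain, was the most abundant at 168 ± 27.8 TPM (a length-corrected share of transcripts; SD, n = 3) in controls and 189 ± 44.3 TPM in cKO. C1qa came next in controls at 17.8 ± 11.9 TPM and reached 50.9 ± 22.8 TPM in cKO, where C1qb stood beside it at 50.7 ± 14.5 TPM. Ctss followed at 15.0 ± 5.99 TPM in controls and 32.6 ± 2.88 TPM in cKO, so the order of C1qa, Ctss and C1qb (14.5 ± 5.30 TPM) in controls is within their spread. Ptprc, the pan-leukocyte phosphatase CD45, had the lowest mean TPM of the 31 in both groups. It stood at 0.116 ± 0.0380 TPM in controls and 0.206 ± 0.0587 TPM in cKO. In controls its order below Cd14 (0.141 ± 0.245 TPM) is within their spread. The rank also rests on a summed exon length of 18313 bases for Ptprc. In CPM its control mean of 0.611 stood above those of Cd14 (0.0656), Cd86 (0.173), Pf4 (0.270), Tmem119 (0.443) and Siglech (0.582). Apart from Lgmn, no member had a group mean above the 50.9 TPM of C1qa.

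Promoter sequences were read from RefSeq (GRCm38.p6) for 23 of the 31 genes, which have 27 listed promoters of 300 bases, from 250 before to 50 after each start. The motif GAGGAAGT, a site of the kind that PU.1 prefers, occurred on either strand in 5 of the 27 promoters (those of C1qc, Cd53, Ctss, Cyth4 and Pf4), as against 3.20% of 32851 promoters. Its 3′ part, AGGAAGT, which every match to the longer motif also holds, occurred in 12 of 27 promoters of 11 genes, as against 9.35%. The ETS-IRF composite element, which PU.1 binds together with IRF4 or IRF8, was matched in 1 promoter (Cd68), as against 2.72%. A match describes the letters in the window and is not evidence of binding. The promoters of 5 members that were higher in cKO are shown, to place the motif in its context, from 250 bases before to 30 after the start, 5′ to 3′ along the gene's strand, with the match in capitals, here in every case the motif's reverse complement. The first 3 hold the longer motif and the last 2 the shorter one. They lie at chr4:136892885-136893164 (C1qc, minus strand), chr3:95526536-95526815 (Ctss, plus), chr3:106790120-106790399 (Cd53, minus), chr10:117282243-117282522 (Lyz2, minus) and chr2:14229164-14229443 (Mrc1, plus).
C1qc: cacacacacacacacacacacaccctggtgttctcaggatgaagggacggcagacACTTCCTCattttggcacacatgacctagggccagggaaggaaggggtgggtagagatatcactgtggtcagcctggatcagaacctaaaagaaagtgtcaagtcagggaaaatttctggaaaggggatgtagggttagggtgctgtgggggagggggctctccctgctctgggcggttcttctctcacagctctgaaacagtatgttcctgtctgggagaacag
Ctss: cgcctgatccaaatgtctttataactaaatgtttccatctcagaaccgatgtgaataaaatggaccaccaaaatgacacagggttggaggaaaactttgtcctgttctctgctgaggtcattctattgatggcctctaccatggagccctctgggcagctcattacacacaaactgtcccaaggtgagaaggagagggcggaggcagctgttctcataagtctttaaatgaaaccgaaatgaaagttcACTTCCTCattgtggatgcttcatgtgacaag
Cd53: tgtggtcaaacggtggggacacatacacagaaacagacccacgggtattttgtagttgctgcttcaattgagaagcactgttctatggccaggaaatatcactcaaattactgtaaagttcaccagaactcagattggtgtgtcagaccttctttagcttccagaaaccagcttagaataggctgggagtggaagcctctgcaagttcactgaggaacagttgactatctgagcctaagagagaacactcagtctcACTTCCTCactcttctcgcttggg
Lyz2: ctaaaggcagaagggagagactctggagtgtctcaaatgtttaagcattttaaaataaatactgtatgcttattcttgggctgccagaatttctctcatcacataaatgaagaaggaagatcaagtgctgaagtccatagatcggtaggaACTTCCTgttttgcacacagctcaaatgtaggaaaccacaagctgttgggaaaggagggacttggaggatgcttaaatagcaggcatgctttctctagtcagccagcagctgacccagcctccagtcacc
Mrc1: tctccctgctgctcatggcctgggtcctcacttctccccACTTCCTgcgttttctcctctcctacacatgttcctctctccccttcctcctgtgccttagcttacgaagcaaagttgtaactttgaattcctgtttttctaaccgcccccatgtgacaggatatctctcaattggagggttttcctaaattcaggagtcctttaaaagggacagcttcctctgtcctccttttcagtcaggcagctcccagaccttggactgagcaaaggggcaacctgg
Counted with the start base as 0, the first base of the match was at -195 for C1qc, -2 for Ctss, 6 for Cd53, -100 for Lyz2 and -211 for Mrc1. Among these 5, the match lay at or just after the start in Ctss and Cd53 and farther upstream in the others.

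Homeostatic microglia genes were higher in 5 of 7 cases (Cx3cr1, P2ry12, P2ry13, Gpr34 and Fcrls), with a median log2 fold change of 1.02. Their summed level was 14.3 to 19.0 CPM in controls and 37.1 to 37.9 CPM in cKO. The sum in cKO did not split by library set, although single genes did. Set B was lower for 3 of the 7 and higher for 2, as against 31.2% and 32.5% of all genes tested. Cx3cr1, the receptor for the neuronal chemokine fractalkine, read 5.51, 4.04 and 3.35 CPM in control libraries 2, 3 and 4, against 12.1, 12.02 and 10.01 CPM in cKO libraries 1, 2 and 3; all later values follow that order. The groups did not overlap, and the fold was 2.42 (log2 1.28, SE 0.15, adjusted p = 0.00205). Gpr34, a lysophosphatidylserine receptor on the X chromosome, was nearly level within each group. Controls read 1.49, 1.47 and 1.49 CPM and cKO retinas 3.07, 2.65 and 2.62 CPM (log2 0.89, SE 0.23, adjusted p = 0.0422).

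P2ry12, the ADP receptor that steers microglial processes toward injury, read 3.69, 7.45 and 5.73 CPM in controls and 6.09, 7.95 and 16.0 CPM in cKO. Its groups overlapped across sets but not within them, since set B was the higher set (log2 1.11, SE 0.18, adjusted p = 0.00745). The neighbouring ADP receptor gene P2ry13 showed the same split at lower levels, with 0.568, 1.53 and 0.762 CPM in controls and 1.48, 1.31 and 2.79 CPM in cKO. There cKO 1 and cKO 2 were below control 3, and the set-adjusted difference was 1.28 (SE 0.33, adjusted p = 0.0386). Both genes lie on chromosome 3, P2ry13 at 59207892 to 59210882 and P2ry12 at 59216272 to 59262871, on the minus strand. Fcrls, an Fc receptor-like gene of mouse microglia, read 6.10, 2.24 and 2.48 CPM in controls and 12.5, 11.8 and 4.90 CPM in cKO. Here set A was the higher set, and the difference was 1.02 (SE 0.15, adjusted p = 0.00482).

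Tmem119 and Siglech, both used as microglial markers, did not pass the test. Tmem119 read 0.743, 0.419 and 0.166 CPM in controls and 1.12, 1.33 and 0.136 CPM in cKO, so that cKO 3 was the lowest library of all (log2 0.18, SE 0.52, adjusted p = 0.867). That estimate was negative in 4 alternative fits, DESeq2 among them. Siglech, a sialic acid binding lectin, read 0.874, 0.509 and 0.364 CPM in controls and 0.714, 0.871 and 1.02 CPM in cKO (log2 0.47, SE 0.39, adjusted p = 0.507). Tmem119 rested on 4 to 96 reads a library and Siglech on 11 to 63.

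The receptor and transcription factor group was higher in 2 of 3 cases. Csf1r, the receptor for the survival factors CSF1 and IL-34, read 10.3, 3.98 and 2.78 CPM in controls and 18.7, 21.7 and 10.3 CPM in cKO. The highest control, of set A, stood level with the cKO library of set B, and the fold was 2.40 (log2 1.26, SE 0.19, adjusted p = 0.00478). Exons of Csf1r share 873 bases with Hmgxb3 on the opposite strand, and no source used here says whether the counting was stranded. Spi1, which makes PU.1, read 0.962, 0.359 and 0.629 CPM in controls and 3.12, 2.39 and 1.84 CPM in cKO, with no overlap (log2 1.69, SE 0.31, adjusted p = 0.0108). Irf8, an interferon regulatory factor that works beside PU.1, read 2.51, 1.83 and 1.29 CPM in controls and 4.07, 3.50 and 3.37 CPM in cKO. Its groups did not overlap either, but the difference of 0.83 (SE 0.25) did not pass, with an adjusted p of 0.0603.

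Complement genes were higher in 3 of 4 cases, and those 3 are the chains of C1q, the protein that starts the classical pathway. They sit side by side on the minus strand of chromosome 4, with C1qb at 136880129 to 136886187, C1qc at 136889804 to 136893065 and C1qa at 136895917 to 136898803. C1qa read 8.79, 3.65 and 3.25 CPM in controls and 19.1, 16.6 and 8.10 CPM in cKO (log2 1.12, SE 0.14, adjusted p = 0.00239). C1qb read 5.90, 3.20 and 4.51 CPM in controls and 18.3, 16.1 and 11.7 CPM in cKO (log2 1.57, SE 0.16, adjusted p = 0.000956), and its groups were the only ones of the 3 not to overlap. C1qc read 6.99, 1.02 and 1.26 CPM in controls and 18.3, 13.5 and 4.43 CPM in cKO (log2 1.502, SE 0.22, adjusted p = 0.00471). All 3 chains were lower in set B than in set A within each genotype, C1qc the most of these 3, by -2.20 on the log2 scale against -1.24 for C1qa and -0.59 for C1qb. Itgam, the α chain of complement receptor CR3, read 1.90, 1.47 and 1.66 CPM in controls and 2.64, 2.22 and 2.69 CPM in cKO. The groups did not overlap, but the difference was small and did not pass (log2 0.56, SE 0.24, adjusted p = 0.183). Exons of Itgam share 3450 bases with the annotated gene Gm49368 on the same strand, and reads from those bases cannot be told apart.

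The ITAM receptors and adaptors, which pass signals from activating receptors to the kinase Syk, were higher in 3 of 3 cases. Tyrobp, the adaptor DAP12, read 2.69, 0.269 and 0.596 CPM in controls and 6.82, 5.13 and 2.25 CPM in cKO (log2 1.64, SE 0.35, adjusted p = 0.0184). Fcer1g, the common Fc receptor γ chain, read 1.33, 0.898 and 0.232 CPM in controls and 3.55, 2.72 and 2.69 CPM in cKO (log2 1.68, SE 0.42, adjusted p = 0.0345). Trem2, the lipid-sensing receptor that signals through DAP12, read 1.60, 0.539 and 0.497 CPM in controls and 4.21, 3.30 and 0.953 CPM in cKO (log2 1.09, SE 0.28, adjusted p = 0.0353). Of these 3, only Fcer1g kept the groups apart over all 6 libraries, because control 2 stood above cKO 3 for Tyrobp and Trem2.

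Of the lysosomal genes 3 of 5 were higher. Lyz2, the lysozyme of macrophages and neutrophils, read 1.92, 0.329 and 0.563 CPM in controls and 9.17, 6.38 and 2.86 CPM in cKO, a fold of 4.88 (log2 2.29, SE 0.29, adjusted p = 0.0024). Ctss, the cysteine protease cathepsin S, read 7.98, 4.67 and 4.90 CPM in controls and 12.7, 12.2 and 12.6 CPM in cKO (log2 1.01, SE 0.18, adjusted p = 0.00908). Laptm5, a lysosomal membrane protein of blood lineage cells, read 6.08, 3.68 and 2.45 CPM in controls and 11.8, 12.05 and 9.63 CPM in cKO (log2 1.29, SE 0.21, adjusted p = 0.00625). None of these 3 had overlapping groups. Cd68, a lysosomal glycoprotein often used to stain phagocytes, read 4.09, 5.03 and 6.56 CPM in controls and 6.21, 5.42 and 8.34 CPM in cKO (log2 0.52, SE 0.18, adjusted p = 0.0983). Lgmn read 124, 103 and 113 CPM in controls and 127, 137 and 104 CPM in cKO (log2 0.02, SE 0.09, adjusted p = 0.923), and its estimate changed sign between scalings.

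The border macrophage gene Mrc1 had the largest estimate of the 30 tested members. It read 1.97, 0.299 and 0.364 CPM in controls and 5.37, 5.86 and 9.60 CPM in cKO, with no overlap (log2 2.91, SE 0.57, adjusted p = 0.0135). The difference was 1.49 within set A and 4.68 within set B, and its rank rests on set B. In set A Lyz2 differed more, by 1.97, and without cKO 3 the estimates were 1.54 for Mrc1 and 2.04 for Lyz2. Its interaction of set with genotype had an adjusted p of 0.062 by edgeR's quasi-likelihood test and was called by DESeq2 alone. Pf4, a chemokine of platelets and some border macrophages, read 0.743, 0 and 0.0663 CPM in controls and 1.59, 1.05 and 0.647 CPM in cKO. It was higher in cKO within each set but did not pass the test (log2 1.69, SE 0.65, adjusted p = 0.135), with 0 to 34 reads in the control libraries.

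General leukocyte and myeloid genes were higher in 4 of the 6 that could be tested, of which Cd86 entered through its cKO libraries alone. Cyth4, an exchange factor for ARF proteins in blood cells, read 1.55, 0.748 and 0.398 CPM in controls and 3.94, 4.35 and 3.23 CPM in cKO (log2 1.90, SE 0.32, adjusted p = 0.00788). Cd86, a costimulatory ligand for T cells, read 0.240, 0.180 and 0.0994 CPM in controls and 0.643, 0.691 and 0.647 CPM in cKO (log2 1.78, SE 0.43, adjusted p = 0.0300). Cd53, a tetraspanin of leukocytes, read 1.11, 0.389 and 0.629 CPM in controls and 2.12, 2.09 and 1.70 CPM in cKO (log2 1.29, SE 0.32, adjusted p = 0.0330). Groups did not overlap for these 3, nor for Aif1, which makes the microglial stain IBA1. Aif1 read 0.962, 0.808 and 1.16 CPM in controls and 2.09, 1.76 and 2.11 CPM in cKO (log2 1.05, SE 0.28, adjusted p = 0.0438). Ptprc read 0.743, 0.658 and 0.431 CPM in controls and 1.12, 1.20 and 0.817 CPM in cKO (log2 0.61, SE 0.33, adjusted p = 0.278). Coro1a, an actin-binding protein that neurons make too, read 15.9, 4.55 and 3.05 CPM in controls and 27.5, 21.4 and 4.43 CPM in cKO (log2 0.45, SE 0.20, adjusted p = 0.183). It was split mostly by library set, with a set difference of -2.25. Cd14, the lipopolysaccharide coreceptor, had 9, 0 and 0 reads in controls and 25, 36 and 2 reads in cKO, and was not tested.

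**Figure D2:**
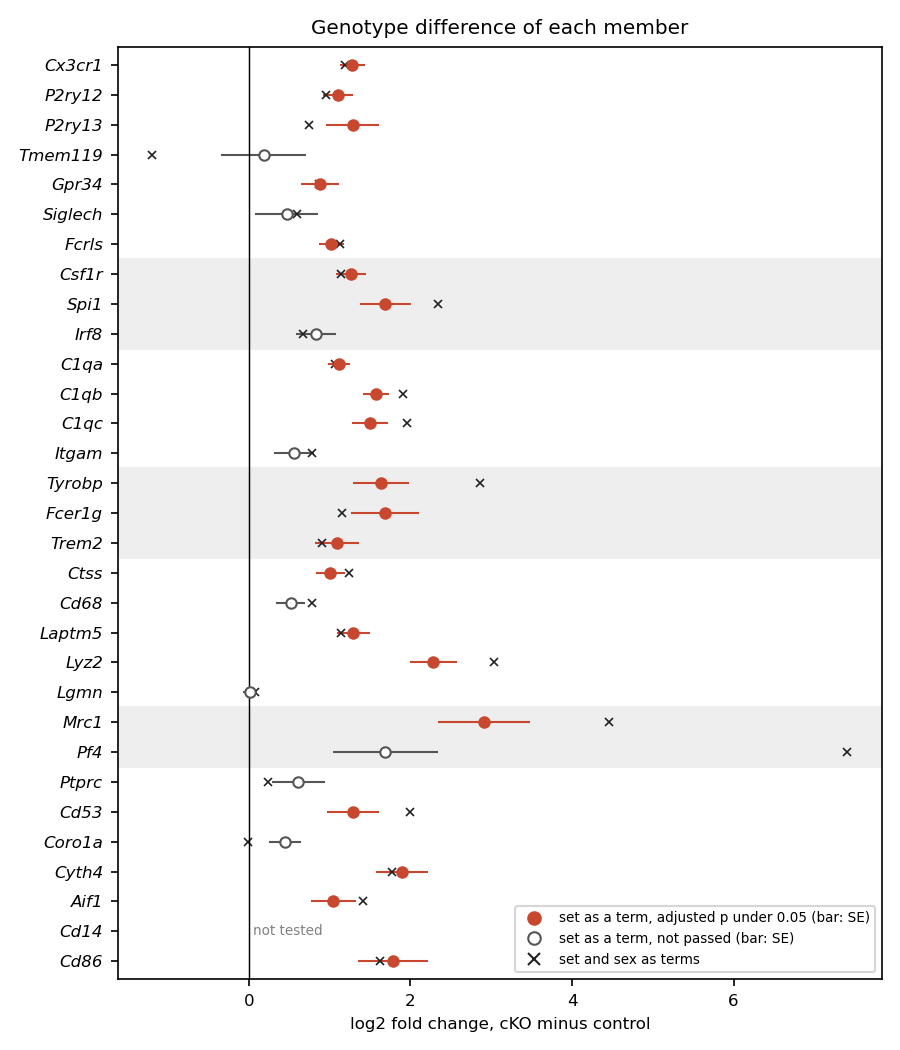
Log2 fold change of cKO against control for the 30 tested members, with library set as a term; points are the estimates, bars 1 standard error, filled points passed the adjusted p of 0.05, and crosses give the estimates with sex as a further term. Estimates run from 0.02 for Lgmn to 2.91 for Mrc1, and the 21 filled points all lie above 0.

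The genotype difference was read within each technical set as well, as differences of log2 CPM with no test. Of the 30 tested members 26 were higher in every cKO library than in every control of the same set, in both sets, as against 22.9% of all genes tested. The exceptions were Tmem119, Siglech, Lgmn and Coro1a. In set A, with 1 control, the median difference was 0.97 and 29 of 30 members were positive, beside 49.2% of all genes. In set B, with 1 cKO library, the median was 1.36 and 28 of 30 were positive, beside 50.2% of all genes. C1qb differed by 1.53 in set A and 1.61 in set B, and Cx3cr1 by 1.12 and 1.43. Tyrobp differed by 1.12 and 2.35, Fcer1g by 1.19 and 2.42, and Lyz2 by 1.97 and 2.61. By edgeR's quasi-likelihood test of the interaction of set with genotype, 0 members were called and 3 had an unadjusted p under 0.05, as against 0.0240% of all genes called. DESeq2 called 1 of them, Mrc1.

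**Figure D3:**
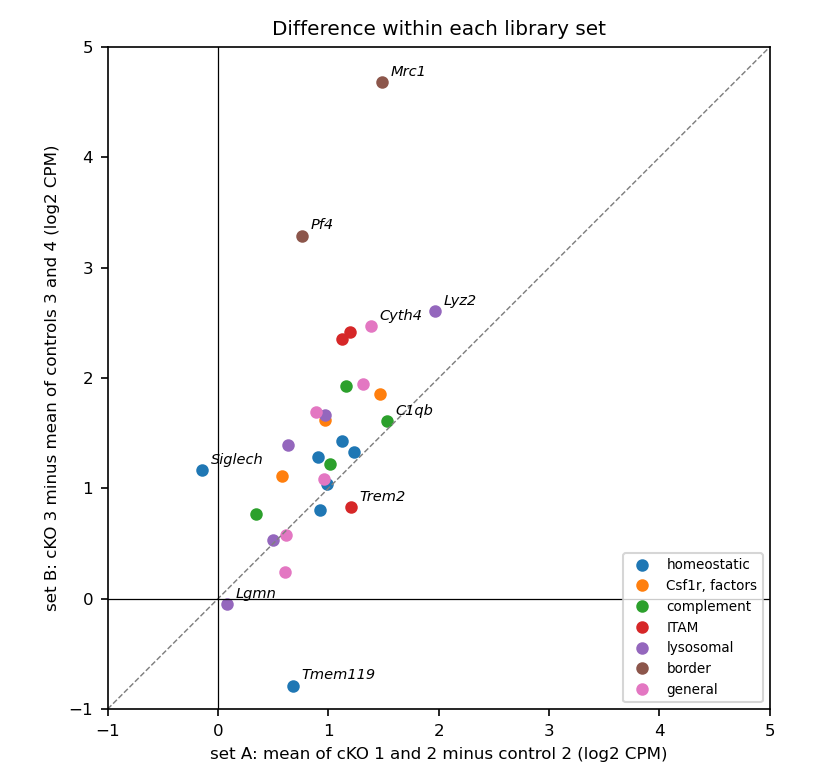
Difference of cKO from control in log2 CPM for the 30 tested members, within set A (horizontal axis, 2 cKO libraries and 1 control) and within set B (vertical axis, 1 cKO library and 2 controls); colours mark the role groups and the dashed line marks equal differences. Most points lie in the upper right, with Mrc1 and Pf4 far above the line and Tmem119 below 0 in set B.

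The sets themselves differed in these genes. By the same fit, 15 members were lower in set B and 3 were higher (P2ry12, P2ry13 and Cd68), with a median of -0.61 beside 0.02 for all genes. Over all genes tested, 31.2% were lower and 32.5% higher in set B. The largest falls from set A to set B were those of Coro1a (-2.25), C1qc (-2.20), Pf4 (-2.06) and Tmem119 (-2.03). These differences in level between sets, within a genotype, reached the size of the genotype differences, and the calls rest on the set term. Without that term 0 members were called by edgeR's quasi-likelihood test, as against 0.216% of all genes, and 17 had an unadjusted p under 0.05, as against 4.98%, with a median of 1.44.

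The calls changed when single libraries were left out and when sex was added as a term. With a control left out, 14 (without control 2), 14 (without control 3) and 15 members (without control 4) were higher, as against 3.26, 3.17 and 3.70% of all genes. With a cKO library left out, 16 (without cKO 1), 15 (without cKO 2) and 4 members (without cKO 3) were higher, as against 8.15, 4.35 and 1.02%. The 4 were Cx3cr1, C1qa, C1qb and Lyz2, which were called in all 6 of these fits. Gpr34, Trem2, Aif1 and Cd86 were called in 0 of the 6, so that leaving out any 1 library ended their call by edgeR's quasi-likelihood test. Without cKO 3 the genotype difference comes from set A alone, with a single control. Without control 2 it comes from set B alone, with a single cKO library. With sex as a further term 2 members stayed higher, as against 1.04% of all genes, and the median of the members was 1.14. The 2 were C1qb (log2 1.91, adjusted p = 0.0177) and Lyz2 (log2 3.03, adjusted p = 0.0357). That fit left 2 residual degrees of freedom, and every cKO library was female. An effect of sex and a loss of power therefore cannot be told apart.

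Other genes of the same pathways, taken from lists that do not hold the members, numbered 101, of which 82 could be tested. Of these 32 were higher and 1 was lower in cKO, beside 6.36% and 5.63% of all genes tested, with a median of 0.55. With sex as a further term 5 were higher, beside 1.04% of all genes, and 1 was lower. The same 6.36% is the background of each list's count of higher genes below. Border macrophage genes led, with 6 of 7 tested higher and a median of 2.12. Their median difference was 1.37 within set A and 2.60 within set B, which holds 1 cKO library. Within set A the inflammatory genes described below had a larger median, 1.65. Stab1, a scavenger receptor, read 6.19, 2.54 and 2.22 CPM in controls and 18.3, 18.0 and 14.2 CPM in cKO (log2 2.03, SE 0.21, adjusted p = 0.00107). F13a1, a transglutaminase of perivascular macrophages, read 1.44, 0.0299 and 0.199 CPM in controls and 6.19, 5.26 and 7.59 CPM in cKO (log2 3.41, SE 0.67, adjusted p = 0.0136). Lyve1, the hyaluronan receptor of border macrophages and lymphatic vessels, read 1.57, 0.479 and 0.331 CPM in controls and 4.52, 4.48 and 6.23 CPM in cKO (log2 2.58, SE 0.45, adjusted p = 0.00907). The groups did not overlap for any of these 3 genes. The other 3 that passed were Cd163 (log2 3.39), Folr2 (1.40) and Dab2 (0.88).

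ITAM and Fc receptor genes were higher in 5 of 7 cases, namely Fcgr1, Fcgr2b, Fcgr3, the phospholipase Plcg2 and the phosphatase Inpp5d, with log2 fold changes from 1.29 to 3.17. Further homeostatic microglia genes were higher in 4 of 10 (Rgs10, Slco2b1, Cd33 and Entpd1), from 0.88 to 1.84. Further complement genes were higher in 3 of 10. Among them were the anaphylatoxin receptors C3ar1 (log2 2.19, SE 0.34, adjusted p = 0.0057) and C5ar1 (2.26, SE 0.62, adjusted p = 0.0470). C3ar1 read 0.415, 0.359 and 0.298 CPM in controls and 1.29, 1.53 and 2.04 CPM in cKO.

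Further lysosomal genes, most of them made by every cell, were higher in 4 of 15 and by little, with Ctsb, Ctsd, Ctsl and Grn between 0.27 and 0.50 on the log2 scale. Transcription factors were higher in 3 of 8, namely Runx1 (1.28), Maf (0.94) and Sall1 (0.80), of which Maf and Sall1 are also made outside the myeloid lineage. Genes of phagocytic or reactive microglia were higher in 3 of 10. Lgals3, galectin-3, read 0.109, 0.0598 and 0.0994 CPM in controls and 1.21, 1.29 and 0.477 CPM in cKO (log2 3.08, SE 0.47). Gpnmb (2.56) and Lpl (0.67) were the others. Inflammatory genes could be tested in 6 of 13 cases, and 2 were higher, the chemokine Ccl2 (3.47) and the lipopolysaccharide receptor Tlr4 (2.95), both under 1 CPM in every library. Lgals3, Ccl2, Tlr4, Cd163 and Fcgr2b had no control library over the filter's CPM of 0.251 and entered the test through cKO alone, so these 5 calls add no support to the counts of their lists.

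**Figure D4:**
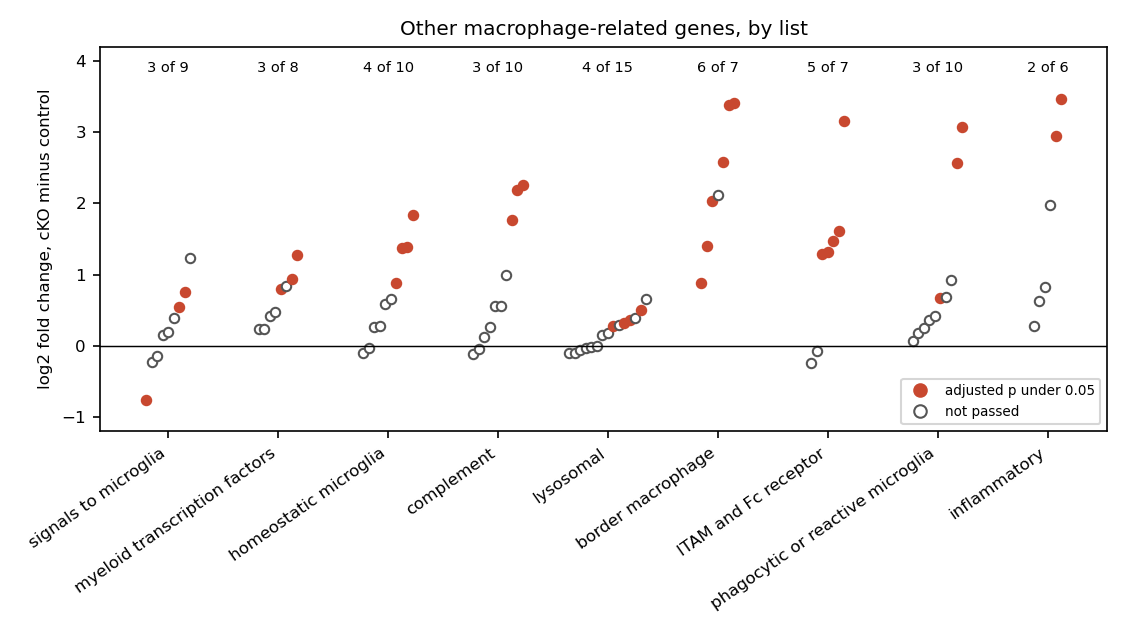
Log2 fold change of cKO against control for the 82 tested genes of 9 further lists, with library set as a term; filled points passed the adjusted p of 0.05, and the counts above give how many of each list passed. The border macrophage list has 6 of 7 filled points, and the lysosomal list stays within 1 of 0.

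Signals from other cells to microglia were mixed. Csf1, a ligand of Csf1r, read 7.34, 8.65 and 8.48 CPM in controls and 9.12, 8.37 and 12.3 CPM in cKO and did not pass (log2 0.39, SE 0.14, adjusted p = 0.108). The fractalkine gene Cx3cl1 did not pass either (log2 0.20, SE 0.13, adjusted p = 0.404), and Il34 was too low to test. Cd200, a neuronal ligand that restrains microglia, was higher at 72.7, 77.0 and 70.8 CPM in cKO against 52.5, 47.9 and 46.3 CPM in controls (log2 0.55, SE 0.08, adjusted p = 0.00448). Gas6, which bridges dying cells to phagocyte receptors, was higher by 0.75 (SE 0.12, adjusted p = 0.00553). Mfge8, another such bridge, read 106, 41.3 and 39.9 CPM in controls and 61.9, 63.1 and 23.6 CPM in cKO, lower within each set (log2 -0.77, SE 0.08, adjusted p = 0.000895).

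Markers of monocytes, neutrophils and lymphocytes were near 0, while those of platelets were mixed. The summed level of 5 monocyte markers was at most 0.0331 CPM in controls and ran from 0.0357 to 0.170 CPM in cKO, with Ly6c2 at 0 in every library. Of 8 neutrophil markers none passed the filter, their sum ran from 0.0898 to 0.656 CPM in controls and from 0.0681 to 0.9996 CPM in cKO, and Mpo was at 0 throughout. Of 8 lymphocyte markers none passed the filter, and Cd3e, Cd3g and Ms4a1 were at 0. The sum of those 8 ran from 0.109 to 0.329 CPM in controls and from 0.102 to 0.589 CPM in cKO. Mast cell markers, 4 in number, summed to 0 to 0.0874 CPM in controls and 0.318 to 1.02 CPM in cKO. Platelet markers were higher in 0 of 3 tested by edgeR's quasi-likelihood test, at 10.1 to 24.1 CPM in controls and 12.4 to 30.97 CPM in cKO. Most of that sum was Gp1bb, while Ppbp had at most 0.0179 CPM and Gp9 at most 0.0553 CPM in any library. The part of platelets in the level of Pf4 was not tested.

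Markers of several other tissues moved with genotype. All 6 lens markers were higher, with a sum of 1.62 to 3.96 CPM in controls and 771 to 1968 CPM in cKO. Endothelial markers were higher in 5 of 8 (Pecam1, Cdh5, Tek, Tie1 and Emcn) and lower in 1, Kdr, which retinal progenitors also make and which takes most of that list's sum of 539 to 701 CPM in controls and 277 to 482 CPM in cKO. Pericyte markers were higher in 3 of 5, at 40.8 to 50.4 CPM in controls and 64.9 to 135 CPM in cKO. Of these 3, Kcnj8 had 1 control library over the filter's CPM of 0.251, as had the lens marker Cryba1. Erythroid markers were higher in 2 of 4 tested (Hba-a1, and Hbb-bt, which passed the filter through cKO alone, as did the lens genes Crygs and Mip), at 0.748 to 12.7 CPM in controls and 18.8 to 22.6 CPM in cKO. Mesenchyme markers (0 of 5 called, 5.30 to 22.3 CPM in controls and 6.80 to 18.7 CPM in cKO) and pigment epithelium markers (0 of 4 called, 3.78 to 11.9 CPM in controls and 8.10 to 25.7 CPM in cKO) did not pass. The part of lens, vessel or blood tissue in the rise of the macrophage genes was not tested. Retinal genes were abundant in every library, at a sum of 2855 to 3716 CPM in controls and 1974 to 3371 CPM in cKO, with Rax and Six6 among the lower genes and Pou4f2 higher in cKO.

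**Figure D5:**
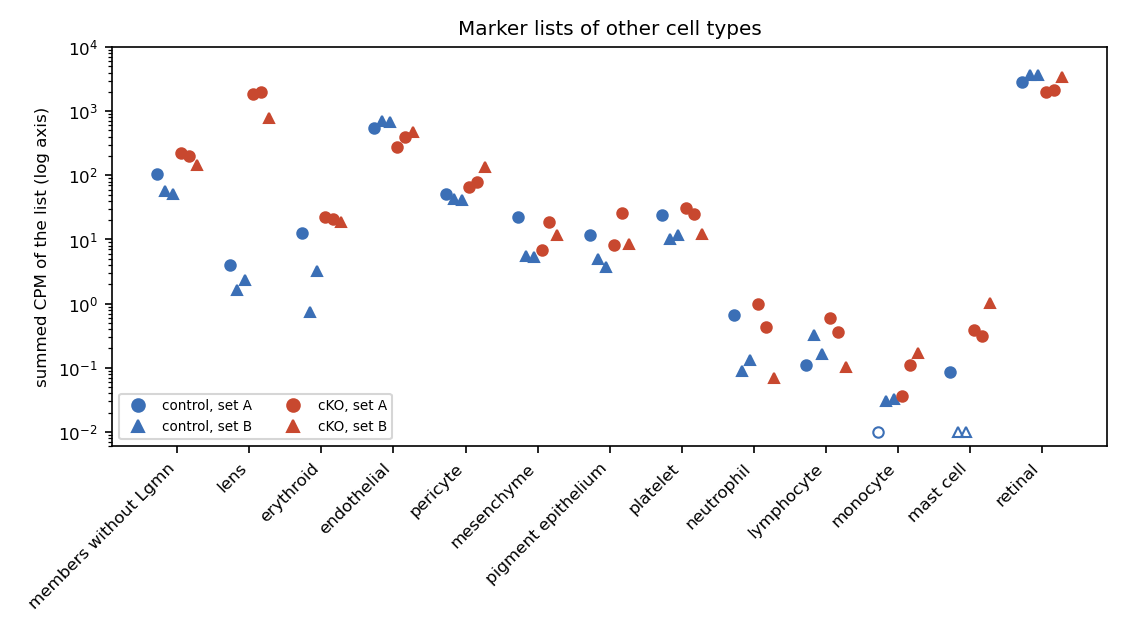
Summed CPM of the members without Lgmn and of the marker lists of other cell types in each library, on a log axis, with blue for control, red for cKO, circles for set A and triangles for set B, open marks at the foot for sums of 0. The lens list rises from at most 3.96 CPM in controls to at least 771 CPM in cKO, while the monocyte, neutrophil and lymphocyte lists stay at or under 0.9996 CPM.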

How the data were processed

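RNA of whole retina was sequenced from 6 libraries (Illumina TruSeq kit, per the labels' protocols). The authors deposited raw counts per Ensembl gene. The submitters' processing notes name STAR, HTSeq, edgeR and GRCm38; no source used here gives versions, the strand setting or whether retinas were pooled. Rows that name no gene (26.4 to 28.8% of all counts) were left out of library sizes and tests. Symbols, positions and exon lengths came from GENCODE vM21 (37693 of 39179 identifiers matched).

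Counts were fitted in R 4.3.3 with edgeR 4.0.16 (quasi-likelihood test, TMM scaling, filterByExpr at a minimum count of 10, 16691 genes) on library set and genotype, with 3 residual degrees of freedom. P-values were adjusted by Benjamini-Hochberg over all tested genes, and the threshold was 0.05. Library set was read from the share of ambiguous counts, not from the labels, and sex from 4 Y-linked genes. The library totals given in the report limit the precision, and genes of a few reads a library have wide errors. Alternatives were no set term, sex or the label number as further terms, other scalings and filters, DESeq2 1.42.0, limma-voom (limma 3.58.1) and leaving out each library. Fits were first run on simulated counts with known fold changes. Those counts held no effect of sex and no interaction of set with genotype, so that run says nothing about either. No pair of libraries within a group agreed within sampling noise (chi-square per degree of freedom at least 24.9). TPM was computed from counts and summed exon length.

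All 31 members are named, as are most genes of the further lists that passed the test, together with those described beside them. Single results for a few listed genes are not reported here. Members and lists were chosen with earlier results of these data known, so their counts and medians are descriptions and no test was made over a list. P-values of the main fit measure the spread left between these libraries once library set and genotype are fitted. The common dispersion was 0.0176 with the set term and 0.157 without it.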

Additional observations from a re-analysis of the deposited data

How the results depend on the processing

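With library set as a term 21 members and 2001 genes in all were called. RLE scaling, no scaling, limma-voom, DESeq2, no filter and a mean CPM of at least 1 gave 20 to 23 members, all higher. Of 16691 genes, 949 were higher with RLE scaling, 1252 with no scaling, 971 by limma-voom and 1204 by DESeq2. A mean CPM of at least 1 left 25 members to test, of which 20 were higher, beside 1011 of 14095 genes. With no filter 23 of 31 members were higher, beside 1471 of 25408 genes. No filter gave 3063 genes in both directions together. Without the set term the counts were 0 members and 36 genes, and with set and sex 2 members and 236 genes. Leaving out 1 library gave 4 to 16 members and 310 to 2707 genes, the lowest both times without cKO 3. Of the members, 4 were called in each of the 6 fits that left out a library and 12 in at least 5. The share of all genes called in all 6 or in at least 5 was not computed. Single fits of these called 1.02 to 8.15% of all genes higher. Numbers 2 and 3 occur in both groups, but same-numbered libraries (correlations 0.770 and 0.674) also share a set, and other pairs of a set correlated at 0.671 and 0.714. Thus the replicate block by label number, which gave 14 members and 2040 of 16691 genes, does not show pairing. The causes of these changes were not tested.

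Members called for library set were 18, with 15 lower and 3 higher in set B, as against 31.2% and 32.5% of all genes tested. With 1 library left out they numbered 12 to 18, and the share of all genes in those fits is not given here. The interaction had 0 members by edgeR's quasi-likelihood test (3 at an unadjusted p under 0.05) and 1 by DESeq2. The set-adjusted difference in the mean log2 level of the members was 0.931, and 0.795 to 1.07 with 1 library left out. Estimates changed sign for 4 members, none of them called. Tmem119 gave -0.00558 by DESeq2 and -1.19 with set and sex, Coro1a -0.0126 with set and sex, and Lgmn -0.0203 with RLE scaling, -0.0199 by DESeq2 and -0.00933 with no filter. With 1 library left out, Tmem119 ran from -1.11 to 0.75, Siglech from -0.11 to 1.21 and Lgmn from -0.0528 to 0.114. Depth limits the low members most: Cd14, Cd86, Pf4, Ptprc and Tmem119 had under 40 reads in every control library.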

Other observations

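Here the mean of each library set was first subtracted from log2 CPM. Members and the genes of the lists above were left out. Over the 6 libraries, the genes that then followed the mean of the 30 tested members most closely were Slc6a15, Cdh18, Cacnb3, Tmem163 and Unc5b. Pearson's r was at least 0.999 for each, as a description of 6 set-centred points that share depth and genotype. These 5 genes were picked for the highest r among all tested genes outside the lists. How high r would run from such a search alone was not tested. Of these 5, Unc5b, a netrin receptor of vessels and neurons, had the largest genotype difference (log2 1.55, adjusted p = 0.00163), and Cacnb3, a calcium channel subunit, had the smallest (0.29, adjusted p = 0.0432). The difference of the members' mean level was 0.931 on a log2 scale.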
